A study of Ovis aries with 9 samples.

Results

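The transcriptomes of ovine granulosa cells (GCs) cultured with no added glucose and with 33.6 mM glucose were compared gene by gene, in 3 libraries of the 0 mM group (CON) against 3 libraries of the 33.6 mM group (HIGH). These are 6 of the 9 libraries of a series on glucose dose. Genes were included when the deposited gene table gave them a symbol, which held for 17076 of 39157 genes. Of these, 2928 are small RNA genes and 14148 are other genes, and 10843 of the latter reached the minimum expression for the test while 3305 did not. The cells came from follicles of 3 to 5 mm in ovaries of Thin-tailed Han ewes aged 1 year by the labels, and the follicle suspensions of many ovaries were pooled. All cultures of both groups were grown with 10% serum for 48 h, kept for 8 h without glucose and serum, and then held for 24 h at 0 mM or 33.6 mM glucose. Because the cells were pooled, the libraries stand for cultures and not for animals, and nothing in the sources says that the cultures of a group came from separate isolations. The p-values then measure only the spread between these samples, which may be technical. No osmotic control is among the labelled groups, so glucose and osmolarity cannot be told apart. In whole cultures, fewer cells of a type and less RNA per cell cannot be told apart either.

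Glucose enters a granulosa cell through facilitative transporters, is phosphorylated by hexokinase and is then burned in glycolysis or passed to side pathways. Its phosphorylated form is sensed by MondoA (encoded by MLXIP) and ChREBP (MLXIPL), which pair with MLX and switch on a small set of genes, among them TXNIP and ARRDC4, whose proteins restrain further uptake of glucose. Lack of glucose is known to engage AMPK, autophagy, the unfolded protein response and the ATF4 programme. Granulosa cells turn cholesterol into progesterone and oestradiol, secrete inhibin and activin, and are lost by apoptosis when a follicle degenerates.

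Expression was given as FPKM, a count of fragments divided by transcript length and by library depth. The deposited tables called read counts hold 57.6 to 71.3 units per FPKM and kilobase of genomic span in CON. In HIGH the factor was 50.2 to 59.9. These units are rescaled FPKM and not measured fragments, so the fragments behind a value are not known. A gene with an FPKM near 0.1 is taken to rest on few fragments. The libraries of a group were not alike. Small RNA genes took 56.6%, 69.6% and 73.8% of the summed FPKM in CON and 32.0%, 54.0% and 72.3% in HIGH. Loci assembled from the reads, outside the genes with a symbol, took 24.3%, 22.9% and 17.1% of the remaining FPKM in CON. In HIGH they took 65.8%, 45.4% and 26.9%, so this share did not overlap between groups. It was not used as a covariate, and its part in the differences was not tested. The first principal component of 9139 well expressed genes held 73.5% of the variance, and along it CON 1 and HIGH 1 lay at one end of their groups and CON 3 and HIGH 3 at the other. The gene loadings on this component had a Pearson correlation of -0.404 with log2 genomic span. On it HIGH 3 lay at the same place as CON 2, at 9.23 against 9.47. The groups therefore overlapped on the main axis of variation, and some values are also given from a fit with the small RNA share as a covariate, an addition made after the data were seen. The part of this axis in the differences between groups was not tested otherwise.

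**Figure D1:**
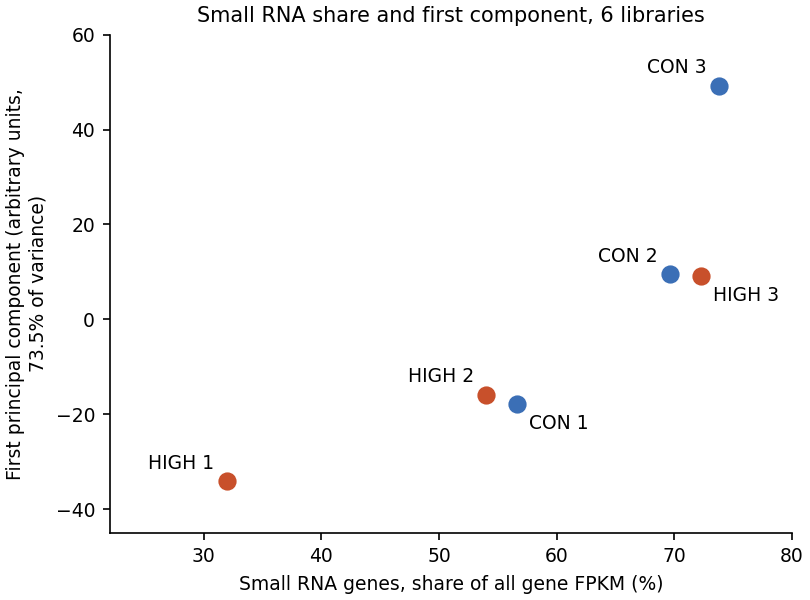
Share of all gene FPKM taken by small RNA genes (horizontal axis, percent) against the score on the first principal component (vertical axis, arbitrary units) for each library, with CON in blue and HIGH in red. The CON libraries span -17.9 to 49.2 on the component and the HIGH libraries -34.1 to 9.23, so the groups overlap.

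The cultures carried RNA of both granulosa and stromal character. Of 18 granulosa markers, 15 were in the table and 13 were tested, of which 0 differed at an unadjusted p under 0.05. FOXL2, AMH and INHBB were not in the table by symbol. On the list, CDH2 was at 116 to 186 FPKM, NR5A2 at 14.3 to 20.1 and INHA, the inhibin alpha subunit, at 8.57 to 19.7. The list members WT1, AMHR2 and HSD17B1 were low, at 0.591 to 1.15, 0.416 to 0.838 and 0.107 to 0.620. CYP11A1, the side-chain cleavage enzyme that starts steroid synthesis, is not on the list and was at 135 to 198. The follicle stimulating hormone receptor FSHR was at 0.338 to 0.564 and aromatase, CYP19, at no more than 0.0217. Genes of smooth muscle and fibroblasts were abundant, with TAGLN at 926 to 2771, ACTA2 at 707 to 931, LUM at 1815 to 2239 and DCN at 243 to 317 FPKM. The summed FPKM of 16 stromal and theca markers was 5326 to 6868 in CON and 4527 to 5913 in HIGH, and that of the granulosa markers 289 to 385 and 269 to 337. The theca genes CYP17A1 and INSL3 did not pass 0.412 and 0.0843 FPKM. Summed markers of endothelial cells were at 1.99 to 3.49 in CON and 2.07 to 2.94 in HIGH, with CDH5 listed at 0 in every library. Summed markers of erythroid cells were at 0.140 to 0.448 and 0.224 to 0.553, and those of the oocyte at 7.18 to 11.1 and 7.11 to 8.08. Immune markers summed to 20.3 to 23.3 in CON and 16.6 to 20.7 in HIGH, and those of surface epithelium to 14.9 to 21.6 and 8.68 to 12.4. The epithelial keratin KRT8 was lower in HIGH (log2 fold change -0.81, limma unadjusted p 0.0342, adjusted p 0.797), and the fold change was -0.45 with the small RNA share as a covariate. CD68 of macrophages was lower too (-0.54, unadjusted p 0.0214, under 0.05 in 2 of the 6 fits without 1 library), but 5 of the 9 tested immune markers were higher and their median was 0.08. Of 14 tested stromal and theca markers 2 were higher at an unadjusted p under 0.05 and 0 lower. The shares over all tested genes were 2.01% and 1.83%. The 2 markers were COL1A1 (1.52) and PDGFRA (0.72), although the sum of the list was not higher. The part of these cell types in the differences below was not tested.

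No gene with a symbol passed the test. The test was limma on log2(FPKM + 0.1), with Benjamini-Hochberg adjustment over 22346 genes. A gene was called at an adjusted p under 0.05 and a log2 fold change past 1. By this rule 0 of 10843 genes with a symbol were called (0%), and the smallest adjusted p was 0.0774. At an unadjusted p under 0.05 there were 416 genes (3.84%), 218 higher in HIGH (2.01%) and 198 lower (1.83%). The share that was higher among the 416 was 52.4%, but it was 25.4% when FPKM was used without scaling and 41.2% after quantile normalization. All 3 HIGH libraries lay above all 3 CON libraries in 440 genes (4.06%) and below them in 741 (6.83%). The median log2 fold change was -0.04. Of the genes picked by the naming rule and reported here with an unadjusted p under 0.05, 26 were higher and 26 lower. Without any 1 of the libraries, 15 and 12 of them kept it. The rule drew on p in these same libraries, so that is no separate support. Among all genes 1 was called (0.00448%), an Ensembl gene without a symbol, ENSOARG00000008115 (chromosome 21, 49743059 to 49748737, genome build not given in the sources used here), listed at 0 in each CON library and at 3.30, 3.85 and 4.70 FPKM in HIGH (adjusted p 0.00531). It passed the filter on low values through its HIGH libraries alone, so it had to differ and its p is no support, and 0 genes were called with no filter. Every gene with a symbol described below is thus given by its values, with fold changes of HIGH over CON on the log2(FPKM + 0.1) scale after median scaling of the libraries.

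**Figure D2:**
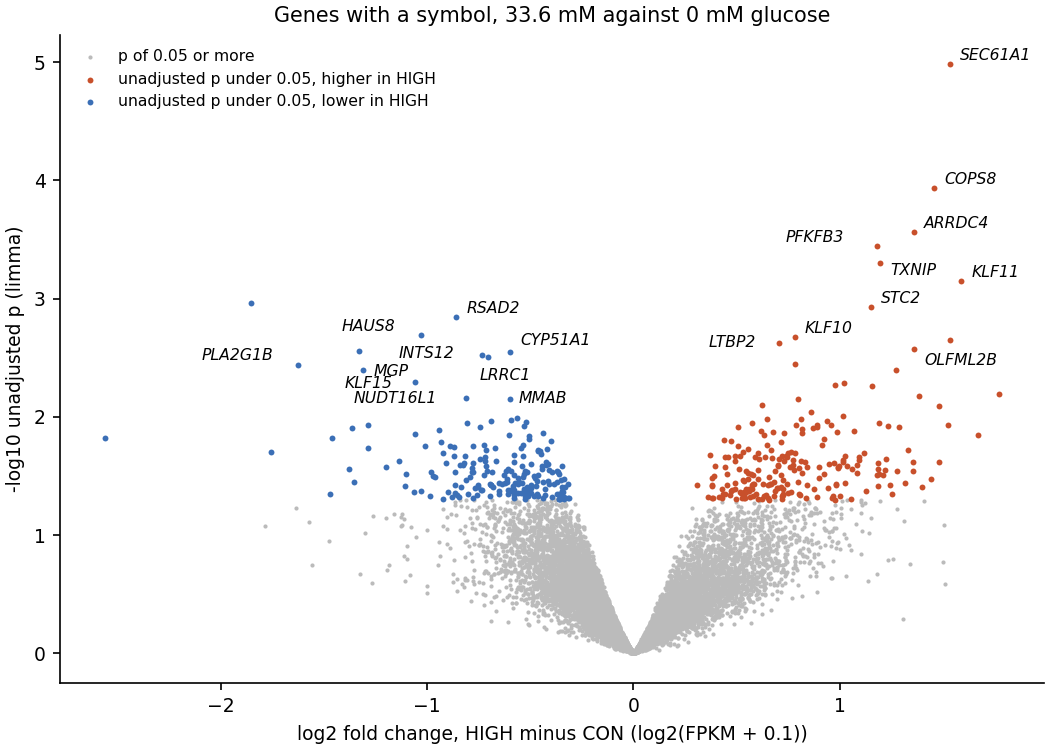
Log2 fold change of HIGH minus CON (horizontal axis) against -log10 of the unadjusted limma p (vertical axis) for 10843 genes with a symbol, each a point, in red or blue where the unadjusted p was under 0.05. The labelled genes are the 10 with the smallest p in each direction among those with a mean of at least 1 FPKM, and SEC61A1 stands highest.

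Of the genes known to answer glucose through MondoA and ChREBP, TXNIP and ARRDC4 were the highest in HIGH, at 2.29 and 2.56 times their CON levels on the fitted scale. The list of 15 genes also holds the sensors MLXIP, MLXIPL and MLX, so its counts and median are not those of targets alone. Of these genes 14 were tested, and 8 were higher and 6 lower in HIGH. At an unadjusted p under 0.05 there were 5 higher and 2 lower ones, beside 2.01% and 1.83% of all tested genes. MLXIP is among the 5 and MLX among the 2. The 14 members had a median log2 fold change of 0.36, beside -0.04 over all genes, and 0.33 with the small RNA share as a covariate, which left 5 higher and 1 lower. At that unadjusted p, the number of higher genes was 3 without CON 2, HIGH 1 or HIGH 2. Of the 2 lower genes 1 was left without HIGH 3 and 0 without CON 2, CON 3, HIGH 1 or HIGH 2.

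TXNIP binds thioredoxin and promotes the internalization of glucose transporters. Its FPKM was 76.2, 90.4 and 103 in CON and 180, 215 and 207 in HIGH. The groups did not overlap, and the log2 fold change was 1.19 ± 0.20 (SE), with a limma adjusted p of 0.797 and an unadjusted p of 0.000499. ARRDC4, an arrestin-domain relative of TXNIP, was at 17.6, 14.3 and 12.1 FPKM in CON and 45.7, 39.1 and 27.6 in HIGH. Its lowest HIGH library lay above its highest CON library, with a log2 fold change of 1.36 ± 0.20 (unadjusted p 0.000272). KLF10, a transcription factor that ChREBP induces in liver, was at 5.18, 4.75 and 4.35 in CON and 8.93, 9.12 and 6.50 in HIGH, again without overlap (log2 fold change 0.78, unadjusted p 0.00211). These 3 genes kept an unadjusted p under 0.05 without any 1 of the 6 libraries, and they are also among those picked by p below.

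The sensor subunits MLXIP and MLX had fold changes of opposite sign, each with a limma adjusted p of 0.797. Each kept an unadjusted p under 0.05 in 2 of the 6 fits without 1 library. MLXIP, which encodes MondoA, was at 15.2, 10.9 and 6.44 FPKM in CON and 31.1, 23.9 and 11.7 in HIGH. Its groups overlapped and each followed the order of the small RNA share, with a log2 fold change of 1.02 that became 0.52 with that share as a covariate (unadjusted p 0.0364 and 0.0499). MLX, the shared partner, was at 22.6, 23.0 and 23.8 in CON and 12.6, 16.1 and 19.1 in HIGH, where every library was lower. Its log2 fold change of -0.53 became -0.31 with the covariate (limma unadjusted p 0.0306 and 0.0392). ChREBP itself, MLXIPL, did not exceed 0.257 FPKM. PDK4, the kinase that turns off pyruvate dehydrogenase, was at 17.6, 16.8 and 14.7 in CON and 21.1, 21.2 and 19.9 in HIGH (0.37, unadjusted p 0.0212). ARRDC3, another arrestin-domain gene, was at 16.5, 16.4 and 17.7 in CON and lower in HIGH, at 12.9, 13.7 and 12.5 (-0.35, unadjusted p 0.0392). THBS1, a matrix glycoprotein also known to respond to glucose, had a log2 fold change of 0.68 with an unadjusted p of 0.101, and of 0.33 with the small RNA share as a covariate.

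The smallest p of any gene with a symbol was that of SEC61A1, the pore subunit of the channel through which new proteins enter the endoplasmic reticulum (chromosome 19, 59331197 to 59343557). It was at 19.4, 19.7 and 21.3 FPKM in CON and 58.9, 60.3 and 53.1 in HIGH. The groups were wide apart, with a mean of 20.1 ± 1.01 against 57.4 ± 3.78 (SD, n = 3) and a 2.90-fold level in HIGH. The log2 fold change was 1.53 ± 0.14 (SE), with an unadjusted p of 1.04e-05 and an adjusted p of 0.0774 by limma. It was 1.55 with the small RNA share as a covariate. When the spread was taken over all 9 libraries of the series, the adjusted p was 0.596, and after quantile normalization it was 0.0297, past the threshold.

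COPS8, a subunit of the COP9 signalosome that strips NEDD8 from cullins, came next. It was at 3.20, 3.20 and 3.11 FPKM in CON and 10.3, 9.60 and 6.66 in HIGH. CON varied very little, and the log2 fold change was 1.45 ± 0.19 (SE), with an adjusted p of 0.519 by limma. This total came mostly from assembled transcripts, given below, while the annotated COPS8-201 did not pass 0.336 FPKM.

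PFKFB3 makes fructose 2,6-bisphosphate, the main activator of glycolysis. It was at 4.78, 4.44 and 5.56 FPKM in CON and 13, 11.0 and 9.53 in HIGH. The groups did not overlap, and the mean of HIGH was 2.27 times that of CON on the fitted scale (unadjusted p 0.00036). KLF11, a Krüppel-like factor close to KLF10, was at 1.04, 0.998 and 0.544 in CON and 3.21, 2.38 and 2.44 in HIGH. It had the largest log2 fold change of the 10 named genes that were higher, 1.59 ± 0.28 (SE), though at a low level. STC2, a secreted glycoprotein of the stress response, was at 0.766, 0.707 and 0.876 in CON and 1.86, 2.03 and 1.60 in HIGH (log2 fold change 1.15).

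OLFML2B and LTBP2 encode secreted proteins of the matrix. OLFML2B was at 4.39, 3.84 and 2.0 FPKM in CON and 10.5, 8.70 and 6.31 in HIGH, and LTBP2 at 8.58, 8.95 and 7.59 in CON and 15.4, 12.9 and 12.3 in HIGH. Neither overlapped between groups. Among genes with a mean of at least 1 FPKM, the 10 with the smallest p that were higher in HIGH were thus SEC61A1, COPS8, ARRDC4, PFKFB3, TXNIP, KLF11, STC2, KLF10, LTBP2 and OLFML2B. All 10 kept an unadjusted p under 0.05 when any 1 library was left out and with the small RNA share as a covariate. They were picked by p in these same libraries, so this is no separate support. Their adjusted p ran from 0.0774 to 0.797, and from 0.0788 to 0.596 with all 9 libraries.

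**Figure D3:**
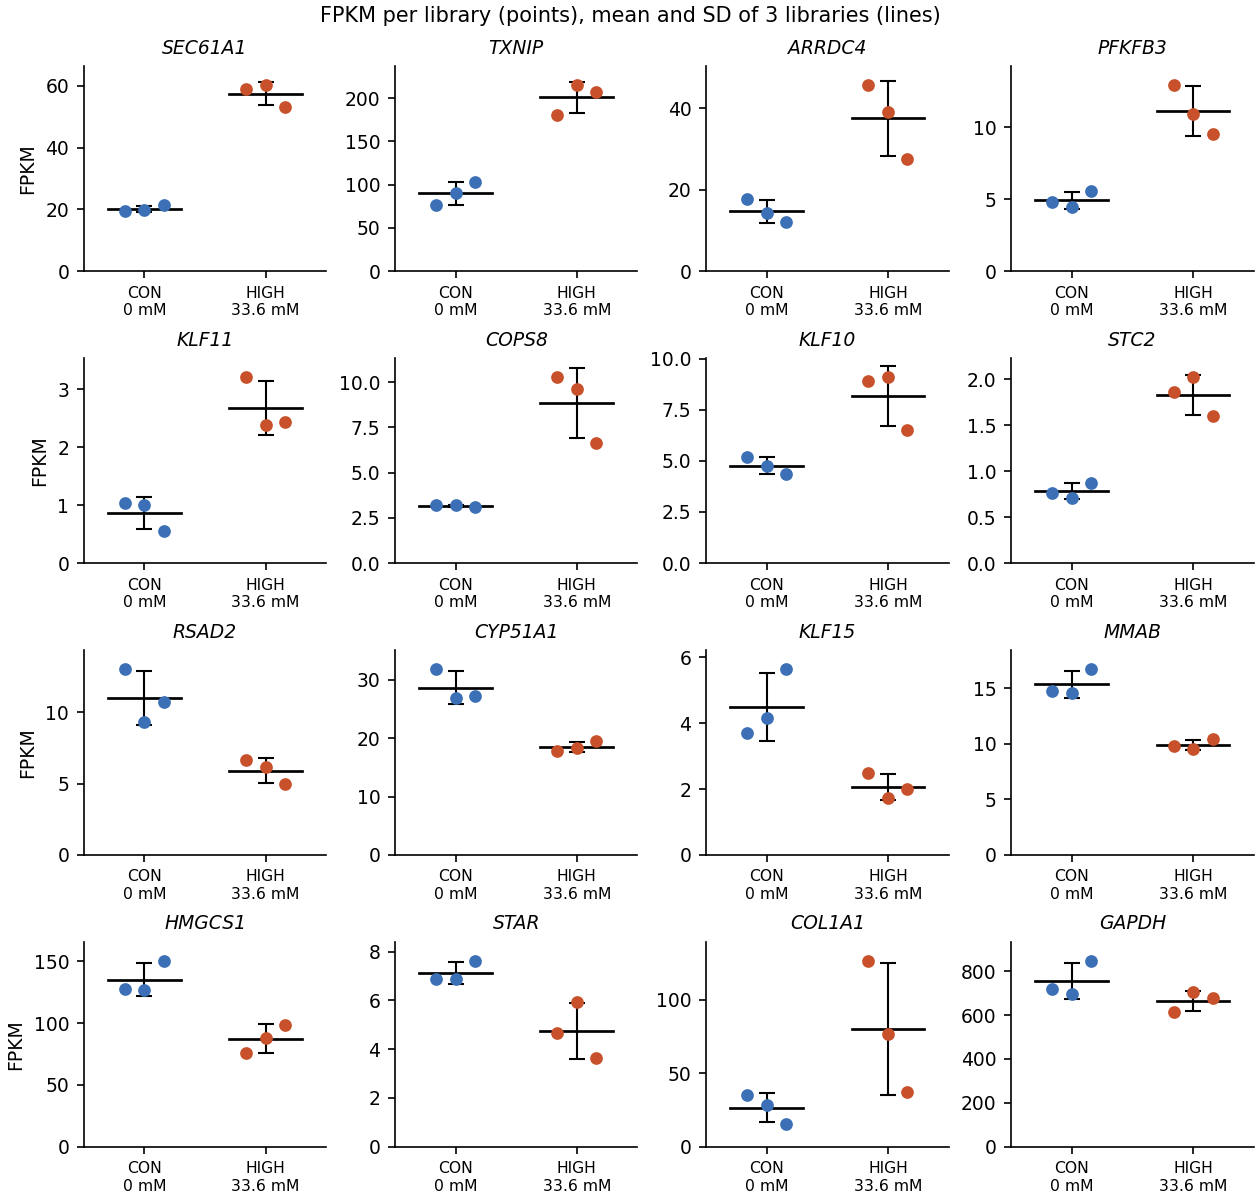
FPKM in each library (points, blue for CON and red for HIGH) with the mean and SD of 3 libraries (black lines) for 16 genes, each on its own axis from 0. SEC61A1, TXNIP, ARRDC4, PFKFB3, KLF11, COPS8, KLF10 and STC2 are higher in every HIGH library, RSAD2, CYP51A1, KLF15, MMAB, HMGCS1 and STAR are lower in every HIGH library, and COL1A1 is spread widely within each group while GAPDH overlaps.

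Few other genes of glucose use differed at an unadjusted p under 0.05. Of 20 glycolysis genes tested, 16 were higher and 4 lower in HIGH, where 5916 of all 10843 tested genes were lower. Their median log2 fold change was 0.21. At an unadjusted p under 0.05, 2 were higher, beside 2.01% of all tested genes. These were PFKFB3 and PFKL, the liver form of phosphofructokinase, which was at 4.95, 4.20 and 3.57 FPKM in CON and 11.6, 8.66 and 4.96 in HIGH (0.92, unadjusted p 0.0155, and 0.57 with the covariate). GAPDH was at 720, 696 and 849 in CON and 612, 703 and 677 in HIGH, and HK2 at 5.43, 2.76 and 1.45 and 9.52, 4.72 and 2.53, both overlapping.

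Among 11 uptake genes 5 had a fold change above 0 and 6 below, where 5916 of all 10843 tested genes were below 0. At an unadjusted p under 0.05, 1 was higher, beside 2.01% of all tested genes. This was SLC16A3, the exporter of lactate. It was at 4.38, 3.67 and 3.69 FPKM in CON and 7.61, 5.66 and 5.18 in HIGH (0.65, unadjusted p 0.0105). The basal glucose transporter SLC2A1 was at 43.1 to 48.8 in CON and 32.9 to 51.9 in HIGH, and the list had a median of -0.03. Of 13 genes of the pentose phosphate and hexosamine pathways 10 had a fold change above 0 and 3 below, and the median was 0.10.

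Of 9 polyol and osmotic stress genes 1 was lower at an unadjusted p under 0.05, beside 1.83% of all tested genes. It was the fructokinase KHK, at 2.45, 2.18 and 2.84 FPKM in CON and 1.39, 1.73 and 1.17 in HIGH (-0.74, unadjusted p 0.0121). The osmotic stress factor NFAT5 overlapped, at 14.6, 13.3 and 6.39 in CON and 15.7, 14.7 and 12.4 in HIGH. Of 12 genes of gluconeogenesis and fasting 0 differed at an unadjusted p under 0.05, and the median was -0.05.

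Several genes of cholesterol synthesis were lower in every HIGH library than in any CON library, as were 6.83% of all tested genes. CYP51A1, the lanosterol demethylase, was at 31.9, 26.8 and 27.3 FPKM in CON and 17.8, 18.3 and 19.5 in HIGH. All HIGH values were lower, at a log2 fold change of -0.60 ± 0.13 (SE) and an unadjusted p of 0.0028. HMGCS1, which makes the HMG-CoA that feeds the pathway, was at 127, 127 and 151 in CON and 76.0, 87.7 and 98.7 in HIGH (-0.60, unadjusted p 0.0143). SQLE, the squalene epoxidase, was at 47.2, 39.1 and 40.3 in CON and 31.7, 34.1 and 31.6 in HIGH (-0.35, unadjusted p 0.0258). DHCR7, the last enzyme of the pathway, was also lower in every HIGH library (-0.52, unadjusted p 0.0427, and -0.31 with the covariate), as was SCD, which desaturates fatty acids (-0.40, unadjusted p 0.016). MMAB, an enzyme of vitamin B12 metabolism whose gene is known to share a promoter with that of mevalonate kinase, was at 14.8, 14.5 and 16.7 in CON and 9.80, 9.51 and 10.4 in HIGH.

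The list as a whole did not move together. Of 19 cholesterol and fatty acid synthesis genes 8 had a fold change above 0 and 11 below, and 5 were lower in every HIGH library. At an unadjusted p under 0.05, 4 were lower and 0 higher, beside 1.83% and 2.01% of all tested genes. The median was -0.07, which was -0.17 with the covariate. CYP51A1 and MMAB, which are not on that list, were named for their p. FASN, the fatty acid synthase, was at 21.3, 21.0 and 22.9 FPKM in CON and 21.8, 21.0 and 17.1 in HIGH and overlapped. The number of genes lower at an unadjusted p under 0.05 was 2 without CON 2, 1 without HIGH 1 and 0 without HIGH 2.

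Of 13 steroid synthesis genes tested, 12 had a fold change below 0 and 1 above, where 5916 of all 10843 tested genes were below 0. The list had a median of -0.27 (-0.14 with the small RNA share as a covariate), and 1 gene was lower at an unadjusted p under 0.05, beside 1.83% of all tested genes. This was STAR, which carries cholesterol into the mitochondrion, at 6.88, 6.86 and 7.63 FPKM in CON and 4.65, 5.91 and 3.65 in HIGH. Its groups did not overlap (-0.58, unadjusted p 0.0211). CYP11A1, which cuts the cholesterol that STAR delivers, was at 182, 177 and 198 in CON and 142, 155 and 135 in HIGH, also without overlap, with an unadjusted p of 0.0541. The number of genes lower at an unadjusted p under 0.05 was 4 without CON 1 and 0 without CON 2, CON 3 or HIGH 1.

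Of 23 inhibin, activin and BMP genes 0 differed at an unadjusted p under 0.05, and the median was -0.03. INHA was at 12.3, 13.6 and 19.7 FPKM in CON and 8.57, 11.5 and 9.74 in HIGH (-0.57, unadjusted p 0.0508). INHBA, the activin beta A subunit, overlapped at 4.62, 5.20 and 4.62 and 5.02, 4.80 and 3.94. Of 13 ovulation and cumulus expansion genes 1 was lower at an unadjusted p under 0.05, beside 1.83% of all tested genes. It was HAS2, the hyaluronan synthase of the expanding cumulus. HAS2 was at 0.762, 0.729 and 1.13 in CON and 0.523, 0.396 and 0.424 in HIGH (unadjusted p 0.0325). Of 11 IGF system genes 0 differed at an unadjusted p under 0.05.

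Among genes with a mean of at least 1 FPKM, the other genes with the smallest p of those lower in HIGH came from unlike processes. RSAD2, the interferon-induced antiviral enzyme viperin, was at 13.1, 9.31 and 10.7 FPKM in CON and 6.63, 6.13 and 4.98 in HIGH, with a log2 fold change of -0.86 ± 0.17 (SE). KLF15, a glucocorticoid-responsive Krüppel-like factor active in fasting, was at 3.69, 4.16 and 5.66 in CON and 2.48, 1.71 and 1.99 in HIGH (-1.06). KLF15 thus stood opposite to KLF10 and KLF11. HAUS8, of the augmin complex of the spindle, was at 4.94, 4.54 and 6.07 in CON and 2.92, 2.44 and 2.01 in HIGH (-1.03).

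PLA2G1B, a secreted phospholipase A2, and MGP, the matrix Gla protein that inhibits calcification, had the largest differences of this group. PLA2G1B was at 1.76, 2.31 and 3.93 FPKM in CON and 0.531, 1.01 and 0.734 in HIGH (-1.63 ± 0.38, SE). MGP was at 2.90, 3.73 and 5.12 in CON and 1.94, 1.43 and 1.10 in HIGH (-1.31 ± 0.31, SE). INTS12 of the Integrator complex had a log2 fold change of -0.73, LRRC1 of -0.70 and NUDT16L1 of -0.81. The 10 genes, with CYP51A1 and MMAB, had groups that did not overlap and an unadjusted p of 0.00143 to 0.007. That p stayed under 0.05 without any 1 library and with the small RNA share as a covariate. These genes too were picked by p in these same libraries, so neither trait is separate support. The limma adjusted p was 0.797 for each of them.

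Some collagen and matrix genes were higher in HIGH, with a wide spread within the groups. Of 29 genes tested, 18 were higher and 11 lower, 5 were higher at an unadjusted p under 0.05 and 0 lower, beside 2.01% and 1.83% of all tested genes. The median was 0.15, and it was 0.07 with the small RNA share as a covariate or without HIGH 1. COL1A1, the alpha 1 chain of type I collagen, was at 35.1, 28.6 and 15.8 FPKM in CON and 127, 76.5 and 37.1 in HIGH. HIGH 3 came close to CON 1, and the log2 fold change of 1.52 ± 0.45 (SE, unadjusted p 0.0116) became 0.93 with the small RNA share as a covariate. COL1A2, the partner chain, was at 188, 149 and 104 in CON and 324, 245 and 172 in HIGH, where HIGH 3 lay below CON 1 as deposited but not after scaling (0.77, and 0.45 with the covariate). COL5A1, of the type V collagen that starts fibrils, was at 50.9, 54.3 and 49.9 in CON and 108, 77.8 and 63.5 in HIGH (0.67, unadjusted p 0.0134). The others were TNC, tenascin C (0.51), and COL4A1 of the basement membrane (0.70). The number of genes higher at an unadjusted p under 0.05 was 2 without CON 2, HIGH 1 or HIGH 2. It was 3 without CON 3 and 4 with the covariate.

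A list of extracellular signals and second messengers of glucose sensing had 17 tested genes. At an unadjusted p under 0.05, 3 were higher and 0 lower, beside 2.01% and 1.83% of all tested genes. The fold changes ran from -0.78 to 1.05, with a median of 0.29 that was 0.03 with the small RNA share as a covariate. TGFB1 was at 10.3, 6.89 and 3.59 FPKM in CON and 17.5, 13.6 and 7.74 in HIGH (0.97, and 0.50 with the covariate). CCN1, a matrix-bound protein that responds to TGF-beta and to stretch, was at 71.6, 45.4 and 21.8 in CON and 132, 83.1 and 55.1 in HIGH (1.05, and 0.53 with the covariate). Both overlapped. PDGFRA was at 44.4, 30.4 and 17.7 in CON and 52.7, 50.1 and 39.0 in HIGH, with an unadjusted p of 0.0406 and of 0.122 with the covariate. The count was 0 without CON 2, HIGH 1 or HIGH 2 and 1 without CON 3.

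Lists of stress and starvation differed in few members. Of 18 ATF4 genes 2 were higher at an unadjusted p under 0.05, STC2 and DDIT4, beside 2.01% of all tested genes. DDIT4, an inhibitor of mTORC1, was at 7.43, 4.94 and 4.84 FPKM in CON and 14.1, 9.65 and 5.97 in HIGH with overlap (0.75, unadjusted p 0.0441, and 0.35 with the covariate). The asparagine synthetase ASNS was at 19.9, 15.4 and 12.8 in CON and 16.5, 16.5 and 19.2 in HIGH. Of 19 endoplasmic reticulum chaperone and unfolded protein response genes 1 was higher at that p, again beside 2.01%. It was the stress sensor ERN1 (0.90, unadjusted p 0.0328, and 0.61 with an unadjusted p of 0.0994 with the covariate). The chaperone HSPA5 was at 252, 212 and 236 in CON and 216, 223 and 192 in HIGH. Beside the 2.90-fold level of SEC61A1, the median of these 19 genes was -0.04, equal to that of all genes.

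Of 22 autophagy and lysosome genes 1 was higher at an unadjusted p under 0.05, beside 2.01% of all tested genes. This was ULK1, the kinase that starts autophagy. It was at 5.85, 5.53 and 3.76 FPKM in CON and 11.9, 9.87 and 6.19 in HIGH (0.87, unadjusted p 0.0123, and 0.58 with the small RNA share as a covariate). Of 21 AMPK and mTORC1 genes, 12 hypoxia genes and 10 heat shock genes 0 differed at an unadjusted p under 0.05.

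Few genes of apoptosis differed at an unadjusted p under 0.05. Of 21 BCL2 family and caspase genes 1 was lower at that p, beside 1.83% of all tested genes. It was BOK, an effector of the BAX kind, at 5.49, 5.08 and 8.18 FPKM in CON and 3.64, 4.41 and 3.96 in HIGH (-0.58, unadjusted p 0.0456). It kept a p under 0.05 in 2 of the 6 fits without 1 library, and with the small RNA share as a covariate it had a log2 fold change of -0.45 and an unadjusted p of 0.123, which left 0 genes of the list.

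BAX, which opens the mitochondrial outer membrane, was at 9.40, 7.78 and 9.38 FPKM in CON and 9.93, 9.39 and 9.72 in HIGH (95% interval of the log2 fold change -0.20 to 0.52). Its antagonist BCL2 was at 0.760, 0.431 and 0.609 in CON and 0.706, 0.894 and 0.799 in HIGH (-0.24 to 1.05). BCL9, a co-activator of beta-catenin, was at 14.4, 8.85 and 4.71 in CON and 19.7, 15.8 and 10.3 in HIGH, with a log2 fold change of 0.82 that was 0.41 with the small RNA share as a covariate (unadjusted p 0.0688 and 0.213). Of 22 p53 targets 0 differed at an unadjusted p under 0.05, and CDKN1A, the cell cycle inhibitor p21, was at 216, 197 and 239 in CON and 192, 207 and 189 in HIGH.

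At an unadjusted p under 0.05, 1 of 16 NF-kappa B and TNF target genes was higher and 2 were lower. Over all tested genes the shares were 2.01% and 1.83%. RELA, the p65 subunit, was higher (0.72, unadjusted p 0.031, and 0.40 with the small RNA share as a covariate). The chemokine CCL2 was at 1.98, 2.49 and 2.04 FPKM in CON and 1.46, 1.05 and 1.04 in HIGH (-0.81, unadjusted p 0.0113), and the cytokine LIF was lower too (-0.47, unadjusted p 0.0349). Of 19 immediate early genes 1 was lower at an unadjusted p under 0.05, the stress factor ATF3. It was at 0.835, 0.725 and 1.01 in CON and 0.445, 0.411 and 0.592 in HIGH (unadjusted p 0.0465).

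Of 23 DNA replication genes and 19 mitosis genes 0 differed at an unadjusted p under 0.05, and their medians of -0.12 and -0.09 were 0.05 and 0.12 with the small RNA share as a covariate. The replication clamp PCNA was at 36.4, 44.5 and 57.1 FPKM in CON and 28.6, 32.4 and 45.3 in HIGH.

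Most mitochondrial and antioxidant genes had fold changes below 0, as had 5916 of the 10843 tested genes. Of 19 nuclear genes of the respiratory chain 16 were lower and 3 higher, with a median of -0.29, which was -0.05 with the small RNA share as a covariate. The 1 gene with an unadjusted p under 0.05 stood on the other side. It was COX5B, a subunit of cytochrome c oxidase, at 24.6, 18.1 and 19.7 FPKM in CON and 27.9, 27.6 and 27.0 in HIGH (0.44, unadjusted p 0.0157). Of 22 genes of the TCA cycle and glutamine use 0 differed at an unadjusted p under 0.05, with a median of -0.14.

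Of 17 antioxidant genes 14 were lower and 3 higher, with a median of -0.23 (-0.11 with the covariate). The glutathione transferase GSTA1 was at 4.13, 5.42 and 6.88 FPKM in CON and 2.06, 3.33 and 2.85 in HIGH (-0.94, unadjusted p 0.0129), with the limit that its family has near-identical copies among which reads can be split. NQO1, a quinone reductase, was at 19.4, 21.5 and 28 in CON and 10.8, 15.8 and 21.1 in HIGH and overlapped (-0.54, and -0.16 with the covariate).

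**Figure D4:**
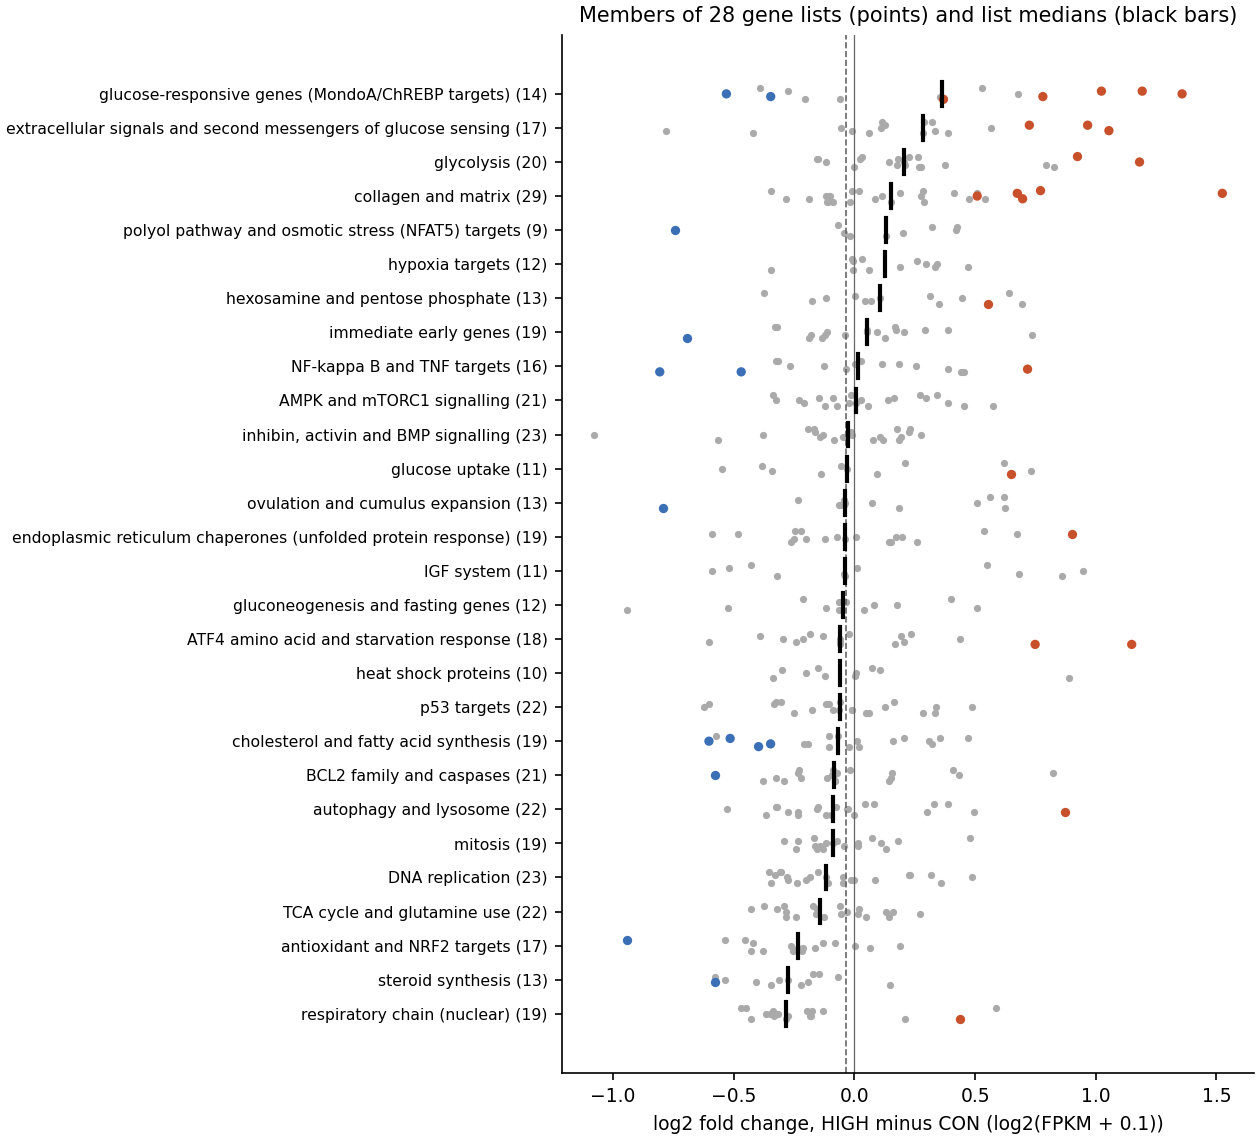
Log2 fold change of HIGH minus CON for each tested member (points) of 28 gene lists, with the list median (black bar), the number tested in parentheses and points in red or blue where the unadjusted p was under 0.05. The dashed line is the median of all tested genes, -0.04, and the medians run from -0.29 for the respiratory chain to 0.36 for the glucose-responsive genes.

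Of 20306 tested transcripts of genes with a symbol, 6 were called (0.0295%) at an adjusted p under 0.05 and a log2 fold change past 1, among 35815 transcripts tested in all. At an unadjusted p under 0.05 there were 887 (4.37%). Apart from SEC61A1-202, the called transcripts were under 0.1 FPKM in at least 2 libraries of one group, mostly listed at 0 there, and passed the filter on low values through the other group. They had to differ, their p rests on the pseudocount, and they are given as values only. With a minimum of 1 FPKM 0 transcripts were called. Without 1 library, none of the 6 but ADGRL2-203 was called again, and that transcript only in 1 of the 6 fits.

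Among the genes with a called transcript, SEC61A1 was the one whose total also differed at an unadjusted p under 0.05. SEC61A1-202 was at 18.6, 18.5 and 19.8 FPKM in CON and 52.3, 53.3 and 48.7 in HIGH and thus rose (log2 fold change 1.49, limma adjusted p 0.0366). The minor SEC61A1-201 was at 0.795, 1.14 and 1.42 in CON and 6.59, 6.95 and 4.40 in HIGH (2.38, adjusted p 0.196). Both transcripts were thus higher in every HIGH library.

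The other called transcripts belonged to genes whose totals had small fold changes. TIPRL, an inhibitor of phosphatase 2A-like enzymes, had 1 transcript, TCONS_00006722, at 2.75, 1.85 and 1.89 FPKM in CON and listed at 0 in all HIGH libraries. Another of its transcripts, TCONS_00006723, was at 0.0771, 0.971 and 0 in CON and 1.78, 1.87 and 2.07 in HIGH, and the gene total had a log2 fold change of 0.10. The 2 transcripts thus stood in opposite order in the groups.

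ATP5F1E, a subunit of the ATP synthase, had an assembled transcript, TCONS_00062852, listed at 0 in CON and at 12.4, 5.11 and 9.35 FPKM in HIGH, while the gene total, which also includes a transcript named as antisense, had a log2 fold change of 0.26. ADGRL2, an adhesion receptor, had 2 called transcripts and a gene total of -0.06. BEND7 had 1, with a gene total of 0.21. A gene total in the deposited table is the sum of the transcripts under that gene name, so a different split of fragments among transcripts leaves it as it is.

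Some transcripts short of the threshold also differed from their gene totals. BRCA2, the recombination gene, had an assembled transcript, TCONS_00036364, at 0.358, 0.261 and 0.234 FPKM in CON and 1.70, 2.36 and 1.41 in HIGH (2.36, adjusted p 0.196), with a gene total of -0.06. LSM3, of the U6 snRNA ring, had TCONS_00121710 at 1.95, 3.15 and 7.16 in CON and 0.197, 0.161 and 0.332 in HIGH (adjusted p 0.275), with a gene total of -0.18. HAUS8-201 was at 3.22, 3.69 and 4.87 in CON and 1.41, 0.994 and 0.973 in HIGH (-1.66, adjusted p 0.340), in the same direction as its gene.

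COPS8 was divided unevenly even within CON. Its assembled transcript TCONS_00014415 was at 0.0614, 2.47 and 2.10 FPKM in CON and 9.70, 8.61 and 6.26 in HIGH, although the CON totals were alike. Another, TCONS_00014416, was at 3.14, 0.727 and 0.795 in CON and 0.269, 0.996 and 0.285 in HIGH (log2 fold change -1.27). The annotated COPS8-201 was near the floor, at 0, 0 and 0.212 in CON and 0.336, 0 and 0.111 in HIGH.

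**Figure D5:**
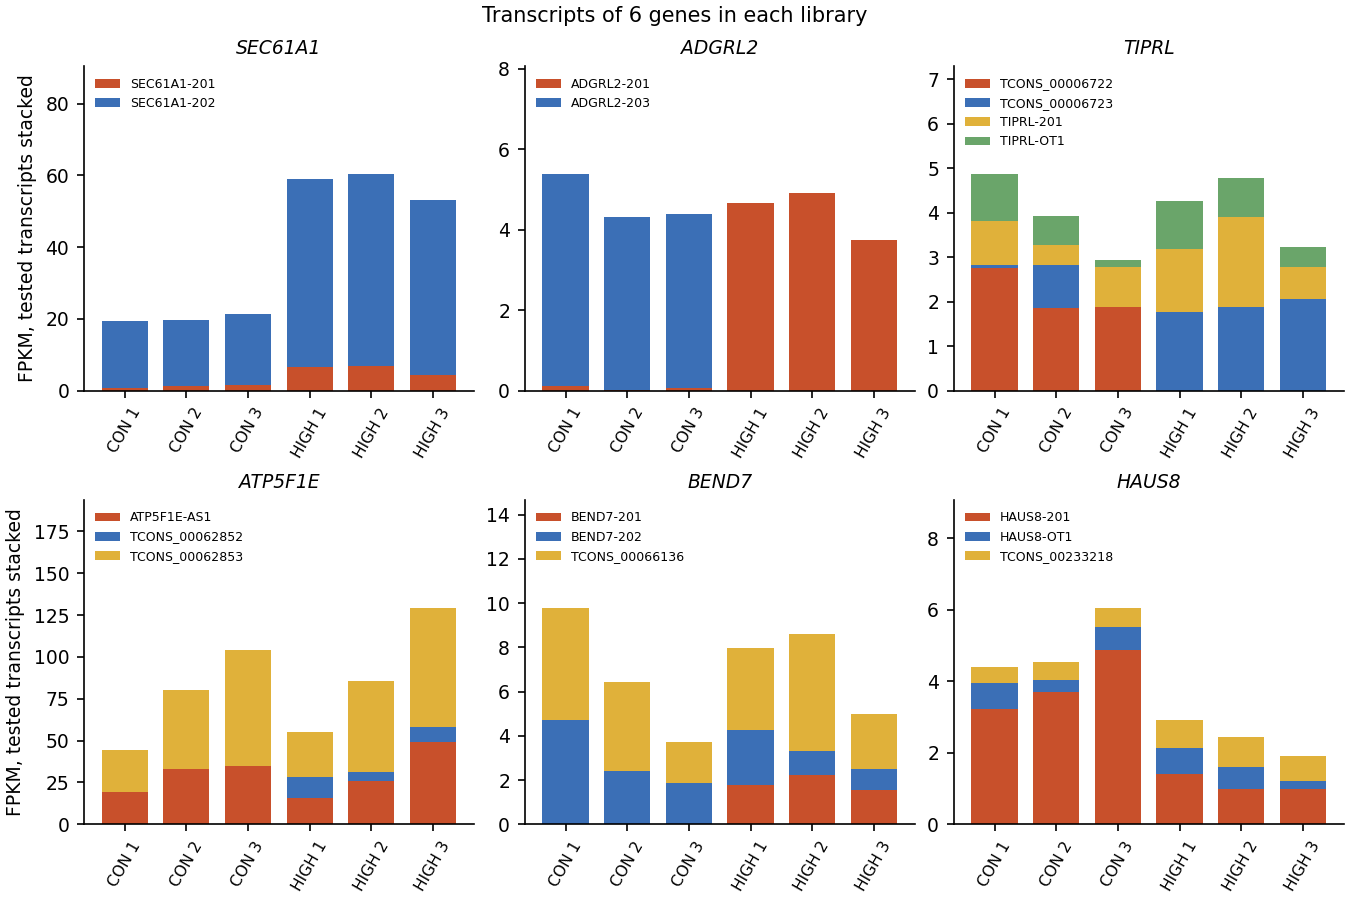
FPKM of the tested transcripts of 6 genes, stacked, in each of the 6 libraries. The SEC61A1 bars are higher in all HIGH libraries, whereas in TIPRL the transcript TCONS_00006722 (red) is present in CON and listed at 0 in HIGH.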

How the data were processed

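Whole-transcriptome libraries of 3 CON and 3 HIGH cultures were used, with groups taken from the sample labels. The authors removed ribosomal RNA, sequenced 150-base reads, used Hisat2 for alignment and StringTie for assembly, and deposited FPKM per transcript and gene. The labels' processing notes also name TopHat2, STAR 2.5.1b and HTSeq 0.6.0. The genome build is not given in the sources used here. The deposited tables called read counts hold, within 3 percent, FPKM times the genomic span times a factor per library, so they were treated as a score and not tested as counts.

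From FPKM, limma 3.58.1 (R 4.3.3, trend) was fitted to log2(FPKM + 0.1) of the 6 libraries. Ensembl genes lacking a symbol carry a further factor in each library, which was divided out, and libraries were then set to a common median over genes with FPKM of 1 or more. Features under 0.1 FPKM in more than 3 libraries, or with a span under 300 bases, were not tested. P-values were adjusted over all features tested. FPKM are printed as deposited; overlap was judged after scaling. The fit was tested on simulated data. An exact permutation of 3 against 3 libraries cannot go below p = 0.1 and was not used. Strand-specific counting is not stated, so overlapping and antisense genes cannot be told apart. Figures used Python 3.11.15 and matplotlib 3.10.9.

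Named genes were the glucose-responsive list, called genes, the 10 smallest p per direction with a mean of 1 FPKM, up to 4 members of every other list, genes assayed in the study's apoptosis tests, granulosa markers, and 5 transcripts per direction; values are not printed for every one, and some genes are not reported here. The comparison and the lists were chosen with earlier results of these data known. Alternatives were a pseudocount of 1, other filters, no scaling, quantile normalization, all 9 libraries, the replicate number as a block, summed transcripts, each library left out and, added later, the small RNA share as a covariate.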

Additional observations from a re-analysis of the deposited data

How the results depend on the processing

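Both the smallest adjusted p and the counts moved with the settings. For genes with a symbol the smallest limma adjusted p was 0.0774, against 0.206 with no filter and 0.174 with the small RNA covariate. It was 0.00386 to 0.954 without 1 library (0.00386 without CON 1, 0.954 without HIGH 2). All genes called numbered 1, against 0 with no filter, 3 after quantile normalization, 2 with all 9 libraries and 0 to 3 without 1 library. Called genes with a symbol numbered 0, against 2 after quantile normalization (TXNIP and SEC61A1) and 0 to 1 without 1 library, the 1 being BTG1 without CON 1. At an unadjusted p under 0.05, the 218 higher genes became 131 with no scaling, 393 with all 9 libraries, 145 with the small RNA covariate and 58 to 667 without 1 library (58 without HIGH 1, 667 without CON 1). The 198 lower genes became 326 with no filter, 384 with no scaling, 473 with all 9 libraries and 60 to 719 (60 without CON 2 or HIGH 1, 719 without CON 1). The 11 called transcripts became 5 with a pseudocount of 1, 1 with no filter, 0 with a minimum of 1 FPKM, 0 with the covariate and 0 to 3 without 1 library. With the replicate number as a block there were 997 higher and 1706 lower genes and 0 called transcripts. The block also gave 257 genes with a symbol at a limma adjusted p under 0.10, against 1 in the main fit, but 0 under 0.05. Deviations of same-numbered libraries correlated at 0.653, -0.0194 and 0.654. The first and last of these lay above every correlation between differently numbered CON and HIGH libraries, but -0.0194 did not. The labels do not say what the numbers mark, and the main fit did not take them as pairs. A shared effect of the replicate number was not tested otherwise. Of 166 named genes 17 changed sign in some setting. In the main fit none of these had an unadjusted p under 0.05 and none was past 0.245 in size. After quantile normalization they were TIE1 (-0.17), TEK (-0.24), SERPINE2 (0.13), AMHR2 (-0.069), GAPDH (0.10), GDF9 (-0.088) and WT1 (-0.033). With the covariate they were TIE1 (-0.14), AMHR2 (-0.13), ARRDC2 (0.094), FLT1 (-0.056), HSD17B1 (0.43) and CDH2 (-0.0038). TEK also changed with a pseudocount of 1 (-0.0050) or no scaling (-0.021). Without 1 library the ranges were TIE1 -0.17 to 0.27, TEK -0.20 to 0.19, SERPINE2 -0.20 to 0.21, ANLN -0.0028 to 0.20, INHBA -0.12 to 0.021, ARRDC2 -0.28 to 0.19, FLT1 -0.032 to 0.56, HSD17B1 -0.64 to 0.30, WT1 -0.043 to 0.41, DDX4 -0.56 to 0.17, CDH2 -0.012 to 0.24, UPK3B -0.30 to 0.040, ACTB -0.0016 to 0.11 and NR5A2 -0.14 to 0.017. The causes were not tested. DESeq2 and edgeR were not run, since the deposited counts are rescaled FPKM. Summed transcripts gave the same counts. Genes near 0.1 FPKM are taken to rest on few fragments, which limits what could be detected.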

Other observations

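In further genes, picked after their values were seen, HIGH 1 was the highest library and CON 3 the lowest, as in COL1A1. HSPG2, the basement membrane proteoglycan perlecan, was at 38.9, 36.1 and 19.2 FPKM in CON and 114, 78.4 and 42.2 in HIGH (log2 fold change 1.29, limma adjusted p 0.797). LAMA5, a laminin chain, was at 5.43, 6.14 and 4.51 in CON and 14.5, 11.7 and 7.27 in HIGH (1.02). CREB3L1, a transcription factor of collagen secretion, was at 24.1, 17.8 and 8.52 in CON and 61.5, 40.5 and 22.5 in HIGH (1.33), and RRBP1, a ribosome-binding protein of the endoplasmic reticulum, at 4.11, 4.40 and 2.55 and 10.5, 9.10 and 5.31 (1.15). In CREB3L1 CON 1 lay above HIGH 3 as deposited. With the small RNA share as a covariate the log2 fold changes were 0.82 for HSPG2, 0.76 for LAMA5, 0.79 for CREB3L1 and 0.86 for RRBP1.

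Some genes, also picked after their values were seen, were set by 1 or 2 libraries. BTG1, an antiproliferative gene, was at 15.4, 132 and 113 FPKM in CON and 10.0, 9.74 and 10.7 in HIGH, the largest log2 fold change among tested genes with a symbol that were lower, -2.56 (adjusted p 0.797). Without CON 1 it was -3.60, with an adjusted p of 0.00386. SP3, a transcription factor, was at 16.7, 25.8 and 28.2 in CON and 4.13, 3.78 and 27.0 in HIGH. FSTL3, an activin antagonist, was at 30.0, 28.7 and 31.3 in CON and 30.6, 27.9 and 3.08 in HIGH, and the zinc exporter SLC30A1 at 6.72, 7.17 and 5.86 and 5.98, 0.370 and 6.09. CFL2, the muscle cofilin, was at 5.00, 3.79 and 2.45 in CON and 4.33, 4.29 and 33.8 in HIGH. TMEM30A, a flippase subunit, was at 41.1, 45.7 and 29.5 in CON and 38.9, 9.08 and 6.87 in HIGH.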
